A study of Homo sapiens with 6 samples.

Results

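The small RNAs described here are those of the spliceosome, of RNA processing and of protein targeting most of which are known to have genes and promoters of their own. Most small nucleolar RNAs, by contrast, are released from introns of host genes. They were chosen by symbol, as every probe for a U-type small nuclear RNA, a 7SK or 7SL RNA, a Y RNA, the U3 small nucleolar RNA (SNORD3A to SNORD3D) and the RNAs of RNase P (RPPH1) and RNase MRP (RMRP). The rule found 29 probes among the 47218 of the array, for 26 of the 20041 genes that the platform names. No measured value enters the rule, but the set was proposed with the values of the 2 groups of arrays already known. The differences between these groups are therefore given as a description, with no p-value for any small RNA.

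The samples were GEN2.2 cells, a human line derived from a plasmacytoid dendritic cell leukaemia. In 3 samples the cells had received 1 µM ODN2006, a synthetic oligonucleotide that activates Toll-like receptor 9, for 2 h, and the other 3 samples were untreated. No control oligonucleotide was analysed here, and 1 cell line stands for the cell type. Material labelled from total RNA was hybridised to Illumina HumanHT-12 v4 bead arrays, 1 array per sample. The labels do not say whether replicates were separate cultures, so the spread between arrays may be technical, and their number limits the precision.

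On these arrays 28.5% to 32.7% of probes were detected, meaning a detection p under 0.01. Of 10 markers of plasmacytoid dendritic cells, 9 were detected on all 6 arrays, among them IL3RA, CLEC4C and TCF4, and LILRA4 was not. No marker of T cells, of red cells and platelets or of stromal cells was detected on all arrays, while CD79A of the B cell list and CD14 of the monocyte list were. Signals below are background-corrected, jointly quantile-normalized log2 intensities. They compare arrays for the same probe and say nothing about the abundance of one RNA against another.

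These genes are divided between RNA polymerase II and RNA polymerase III. Polymerase II transcribes the genes of U1, U2, U4 and U5 RNA, of their minor-spliceosome counterparts U11 and U4atac, and of U3. The Integrator complex cleaves the ends of the U1, U2, U4 and U5 type transcripts. Polymerase III transcribes U6, U6atac, 7SK, 7SL, the Y RNAs and the RNAs of RNase P and RNase MRP. Both classes of snRNA gene use the promoter-binding complex SNAPc, and an added TATA element directs polymerase III to its share of them. The mature forms of most of these RNAs end without a poly(A) tail, whereas the labelling kit starts from an oligo(dT) primer. Whether the probes measured mature RNA, extended transcripts or internally primed copies was not tested.

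Of the 29 probes, 22 were detected on all 3 arrays of at least 1 group and entered the fit, 13 of polymerase II RNAs and 9 of polymerase III RNAs. All 13 tested polymerase II probes were higher after ODN2006, by 0.86 to 1.98 on the log2 scale with a median of 1.37. They are 4 probes of U1, 3 of U3, 2 each of U4 and U11 and 1 each of U5 and U4atac. The 13 probes are therefore not 13 separate RNAs. Of the 9 tested polymerase III probes, those of RPPH1 and RNY5 were higher, and the other 7 lay between -0.18 and 0.30. In RNA from whole cultures, a change in the share of cells that hold an RNA and a change in RNA per cell cannot be told apart. The median of the 9 was 0.04, against -0.04 for all 13816 tested probes. By limma, fitted across all tested probes with Benjamini-Hochberg adjustment, 15 of the 22 passed an adjusted p of 0.05 as higher and none as lower. Of all tested probes, 3.25% passed as higher and 1.75% as lower.

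A filter that admits probes through either group favours differences. 5 of the 22 probes passed it through the ODN2006 arrays alone, namely those of RNU4-1, RNU5A-1 and RNY5, probe 2 of RNU11 and probe 1 of RNU6ATAC. Among the 17 probes detected on all 6 arrays, 10 of 10 polymerase II probes and 1 of 7 polymerase III probes passed. The medians of these were 1.36 and -0.03.

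**Figure D1:**
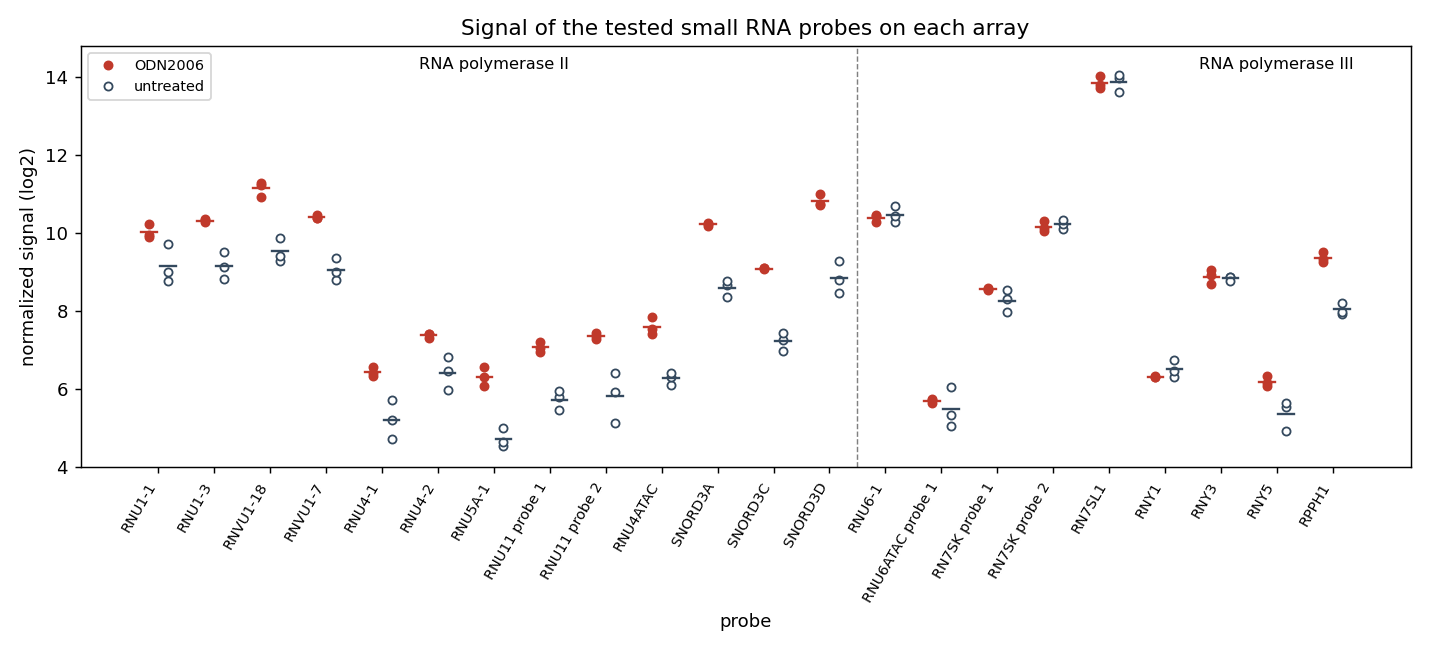
Normalized log2 signal (vertical axis) of the 22 tested small RNA probes on the 3 ODN2006 arrays (filled points) and the 3 untreated arrays (open points), with group means as bars and polymerase II RNAs left of the dashed line. The ODN2006 points lie above the untreated points for all 13 polymerase II probes, and for RNY5, RPPH1 and probe 1 of RN7SK among the polymerase III probes.

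U1 RNA pairs with the 5′ splice site of introns. Its 4 probes stand for the genes RNU1-1 and RNU1-3 and the variant genes RNVU1-7 and RNVU1-18. RNVU1-18 had 11.29, 11.23 and 10.93 on the ODN2006 arrays, against 9.30, 9.42 and 9.89 on the untreated arrays. It was 3.06-fold higher after ODN2006, a log2 difference of 1.61 ± 0.18 (SE). RNVU1-7 had 10.48, 10.40 and 10.38 on the ODN2006 arrays, against 8.79, 9.0 and 9.36 on the untreated arrays. RNU1-3 had 10.36, 10.34 and 10.28 on the ODN2006 arrays, against 8.84, 9.13 and 9.51 on the untreated arrays. At each of these 3 probes the gap between the groups was wider than the range within either group. The log2 difference was 1.37 ± 0.16 for RNVU1-7 and 1.17 ± 0.17 for RNU1-3.

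RNU1-1 had the smallest difference of the polymerase II probes, 0.86 ± 0.22. It had 9.90, 9.95 and 10.24 on the ODN2006 arrays, against 8.78, 9.01 and 9.72 on the untreated arrays, so that the nearest arrays of the groups were close. Its call held under 5 of 12 processing alternatives, among them a block for the replicate number, with an SE of 0.14. Without that block, it was lost when any 1 array other than untreated replicate 3 was left out. The U1 genes are near-identical copies, as are those of U3, and a probe named for one copy can take up RNA of another, so the copy that differed is uncertain.

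U4 RNA is paired with U6 until the spliceosome is activated, and U5 holds the exons during splicing. RNU4-2 had 7.43, 7.31 and 7.43 on the ODN2006 arrays, against 5.98, 6.47 and 6.82 on the untreated arrays, a log2 difference of 0.97 ± 0.20. RNU4-1 had 6.34, 6.41 and 6.57 on the ODN2006 arrays, against 4.72, 5.21 and 5.73 on the untreated arrays, where it was detected on 1 array. Both U4 probes thus read higher on every ODN2006 array than on any untreated one. Whether either probe took up RNA of the other copy was not tested.

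RNU5A-1 was detected on all ODN2006 arrays, at 6.32, 6.09 and 6.58, and on no untreated array, where it read 4.55, 4.64 and 5.0. Its untreated level has only an upper bound, the lowest detected signal on each array, and against this it was at least 2.13-fold higher after ODN2006, on the background-corrected scale. A further U5 gene, RNU5D-1, was detected on no array, with means of 4.52 ± 0.05 on ODN2006 arrays and 4.55 ± 0.26 on untreated arrays (SD, n = 3 each). RNU2-1, the gene of U2 RNA, which pairs with the branch point, was detected on 2 ODN2006 arrays and no untreated array and did not enter the fit. It had 5.07, 5.40 and 5.78 on the ODN2006 arrays, against 4.52, 4.80 and 4.75 on the untreated arrays.

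The minor spliceosome removes a small class of introns, and uses U11 and U4atac in the places of U1 and U4. RNU11 has 2 probes. Probe 1 had 7.22, 7.07 and 6.96 on the ODN2006 arrays, against 5.47, 5.80 and 5.95 on the untreated arrays. Probe 2 had 7.37, 7.28 and 7.44 on the ODN2006 arrays, against 5.15, 5.94 and 6.43 on the untreated arrays. The differences of the 2 probes, 1.35 ± 0.16 and 1.52 ± 0.26, lay within their standard errors of each other. RNU4ATAC had 7.55, 7.42 and 7.85 on the ODN2006 arrays, against 6.11, 6.31 and 6.42 on the untreated arrays. Its difference of 1.33 ± 0.16 was of the size of that of RNU11.

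U3 RNA guides cleavage of the ribosomal RNA precursor in the nucleolus and, unlike most small nucleolar RNAs, comes from genes of its own. It is measured here by 3 probes. SNORD3D averaged 10.82 ± 0.15 on the ODN2006 arrays and 8.85 ± 0.41 on the untreated arrays (SD, n = 3 each). SNORD3C had 9.10, 9.10 and 9.08 on the ODN2006 arrays, against 6.99, 7.26 and 7.44 on the untreated arrays. SNORD3A had 10.26, 10.24 and 10.18 on the ODN2006 arrays, against 8.36, 8.68 and 8.77 on the untreated arrays. All 3 thus had every ODN2006 array more than 1 log2 unit above every untreated array. The log2 differences were 1.98 ± 0.20, 1.86 ± 0.15 and 1.62 ± 0.15, or 3.94-fold, 3.64-fold and 3.08-fold. Of the 13816 tested probes, 110 had a difference at least as high as SNORD3D. In raw intensity, before background correction, SNORD3D read 1881.0, 1749.4 and 2311.5 on the ODN2006 arrays, against 477.3, 492.0 and 693.7 on the untreated arrays.

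**Figure D2:**
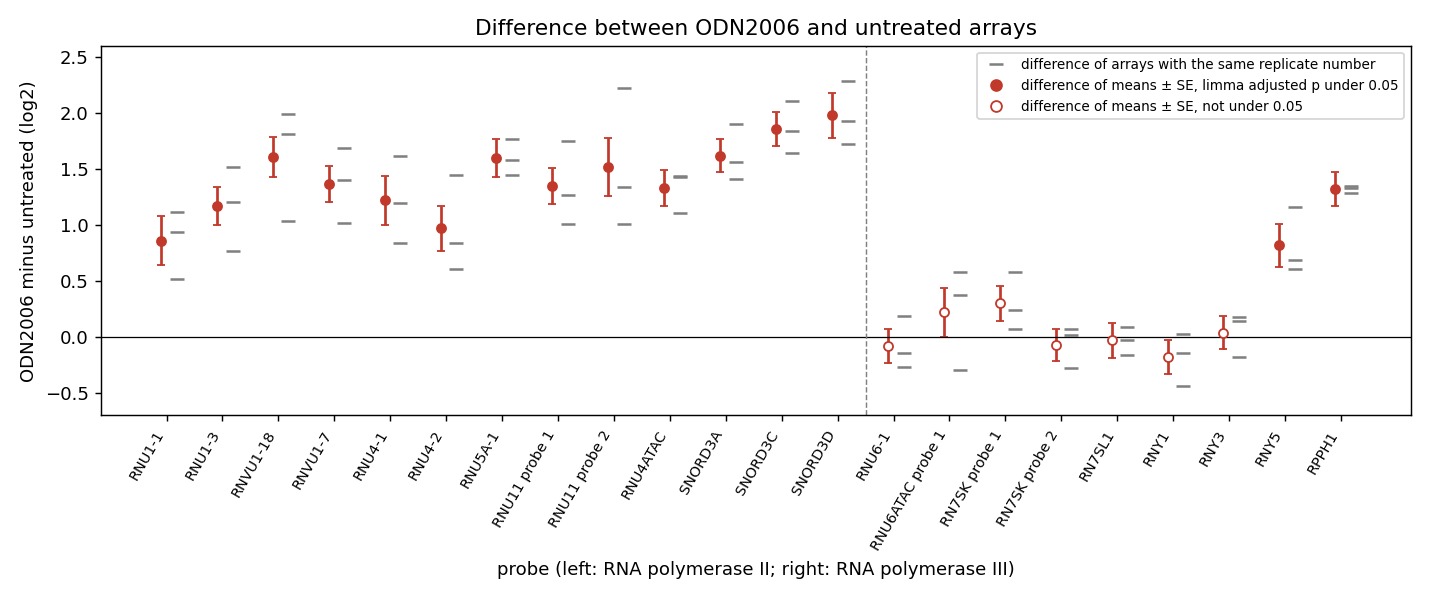
Log2 difference, ODN2006 minus untreated (vertical axis), of the 22 tested probes, as the difference of means ± SE (red, filled where the limma adjusted p was under 0.05) and as the 3 differences between arrays of the same replicate number (grey dashes). The polymerase II probes run from 0.86 to 1.98, and 7 of 9 polymerase III probes lie between -0.18 and 0.30.

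Among polymerase III RNAs, U6 forms part of the catalytic core of the spliceosome. RNU6-1 had 10.47, 10.30 and 10.43 on the ODN2006 arrays, against 10.28, 10.44 and 10.70 on the untreated arrays, and the groups overlapped. Its difference was -0.08 ± 0.15. U6atac takes the place of U6 in the minor spliceosome. Probe 1 of RNU6ATAC had 5.72, 5.65 and 5.76 on the ODN2006 arrays, against 5.34, 5.07 and 6.05 on the untreated arrays, close to the limit of detection and with overlapping groups. Its probe 2 was detected on 2 ODN2006 arrays and 1 untreated array, with means of 5.51 ± 0.31 and 5.19 ± 0.25 (SD, n = 3 each), and did not enter the fit. The difference between these RNAs and their pairing partners U4 and U4atac was not tested.

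7SK RNA holds the elongation kinase P-TEFb in an inactive particle. Probe 1 of RN7SK had 8.56, 8.55 and 8.61 on the ODN2006 arrays, against 7.98, 8.31 and 8.54 on the untreated arrays. Probe 2 had 10.13, 10.32 and 10.05 on the ODN2006 arrays, against 10.11, 10.25 and 10.33 on the untreated arrays. The groups were barely apart at probe 1 and overlapped at probe 2, with differences of 0.30 ± 0.16 and -0.07 ± 0.14, and neither passed. 7SL is the RNA of the signal recognition particle, which brings secretory proteins to the endoplasmic reticulum. RN7SL1 had 13.81, 14.03 and 13.72 on the ODN2006 arrays, against 13.97, 14.06 and 13.63 on the untreated arrays. The groups overlapped, and these signals lie near 14.44, the highest value of any array. Whether differences are compressed there was not tested.

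Y RNAs bind the Ro60 protein, and in human cells they also have a role in DNA replication. RNY1 had 6.34, 6.33 and 6.31 on the ODN2006 arrays, against 6.31, 6.47 and 6.75 on the untreated arrays. RNY3 had 8.70, 9.05 and 8.92 on the ODN2006 arrays, against 8.88, 8.87 and 8.78 on the untreated arrays. Both overlapped, with differences of -0.18 ± 0.15 and 0.04 ± 0.15. RNY5 had 6.09, 6.16 and 6.35 on the ODN2006 arrays, against 4.93, 5.55 and 5.66 on the untreated arrays, and was detected on 2 of the untreated arrays. Its difference of 0.82 ± 0.19 was close to the threshold, and it passed under 3 of 11 alternatives, with 0.30 when background was left in the signal. It was lost without any 1 array other than untreated replicate 3, in fits without a block for the replicate number. With that block and all arrays it passed, with an SE of 0.14. RNY4 was detected on no array.

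RPPH1, the RNA of RNase P, which trims the 5′ ends of transfer RNAs, stood apart from the other polymerase III probes detected on all arrays. It had 9.27, 9.34 and 9.51 on the ODN2006 arrays, against 7.94, 7.99 and 8.22 on the untreated arrays. The groups lay over 1 log2 unit apart, and the difference was 1.32 ± 0.15, or 2.50-fold. The 3 differences between same-numbered arrays were 1.29 to 1.35. RPPH1 passed under all 12 alternatives, with values from 1.08 to 1.41. RMRP, the related RNA of RNase MRP, was detected on no array, with means of 4.82 ± 0.09 on ODN2006 arrays and 4.78 ± 0.06 on untreated arrays (SD, n = 3 each).

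The remaining members, RNU105B and RNU105C, are annotated as small nucleolar RNAs that carry the prefix, and were given no polymerase. RNU105B lies within the gene PLCB1, and was detected on no array. RNU105C was detected on 1 ODN2006 array, and its groups overlapped.

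The arrays of the untreated group were less alike in these RNAs than those of the ODN2006 group. Across the 13 polymerase II probes the median SD was 0.12 on ODN2006 arrays and 0.31 on untreated arrays. Across the 9 polymerase III probes it was 0.12 and 0.22, and over all tested probes 0.19 and 0.16. Untreated replicate 1 was the lowest and untreated replicate 3 the highest of the untreated arrays at 13 of 13 polymerase II probes. At the 9 polymerase III probes, replicate 1 was the lowest at 6 and replicate 3 the highest at 7. Over all tested probes, replicate 1 was the lowest at 33.8% and replicate 3 the highest at 37.4%. Relative to each probe's mean over the 6 arrays, the median of the polymerase II probes was 0.77, 0.66 and 0.74 on the ODN2006 arrays, against -0.98, -0.66 and -0.46 on the untreated arrays. Those of the 9 polymerase III probes were 0.03, 0.12 and 0.05 on the ODN2006 arrays, against -0.16, 0.00 and 0.11 on the untreated arrays. Without untreated replicate 1 the median difference of the polymerase II probes was 1.24, and without untreated replicate 3 it was 1.53, with 12 and 13 of 13 passing.

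**Figure D3:**
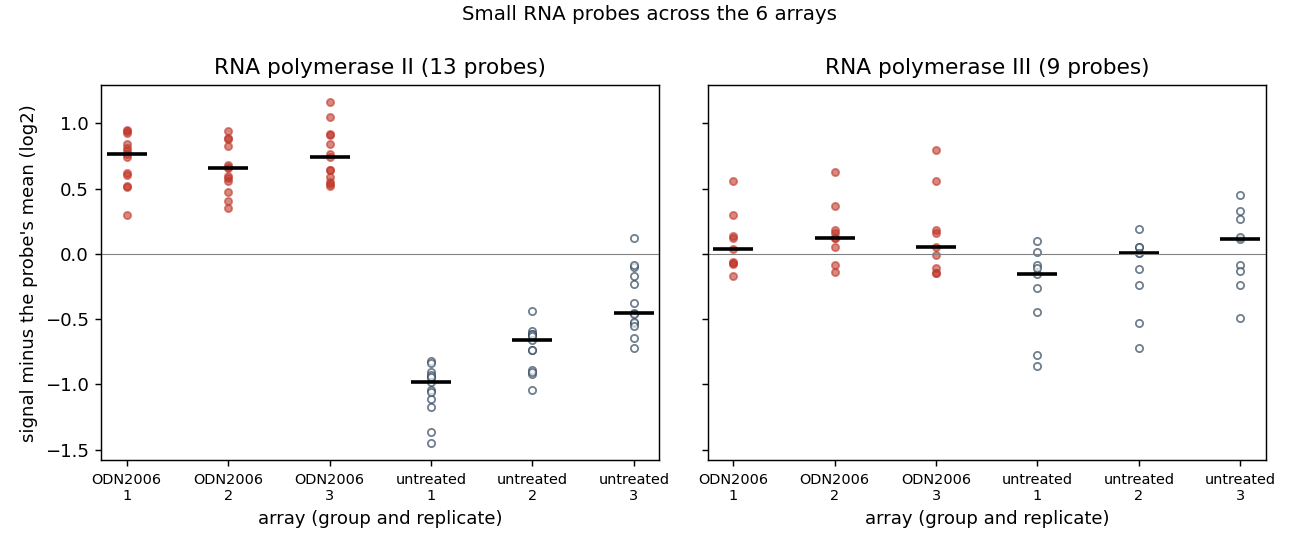
Signal of each tested small RNA probe minus its own mean over the 6 arrays (vertical axis, log2), by array, for polymerase II RNAs (left) and polymerase III RNAs (right), with black bars for the median over probes. At polymerase II probes the medians are 0.66 to 0.77 on ODN2006 arrays and -0.98 to -0.46 on untreated arrays, and at polymerase III probes all lie within -0.16 and 0.12.

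Counting overlap in place of the fit, the 3 ODN2006 arrays all lay above the 3 untreated arrays at 13 of 13 tested polymerase II probes and 3 of 9 tested polymerase III probes. Among the probes detected on all 6 arrays they did so at 10 of 10 and 2 of 7. Of all tested probes, 8.37% had this pattern. Under the 12 alternatives the polymerase II probes that passed numbered 9 to 13 and the polymerase III probes 1 or 2. The number tested differed by setting. When all 47218 probes were tested, 9 of 15 polymerase II and 1 of 12 polymerase III probes passed. With only probes detected on all 6 arrays, 10 of 10 and 1 of 7 passed. Without ODN2006 replicate 1, 13 of 14 and 1 of 10 passed. With background left in the signal all 13 polymerase II probes passed, at a median of 0.76, and the dim probes had less than their reported differences. RNU4-1 then differed by 0.47, RNU4-2 by 0.54, RNU4ATAC by 0.76 and the RNU11 probes by 0.64 and 0.76. RNU5A-1 differed by 0.58 in place of 1.60 at its measured signals, so the bound given for it depends on the background correction. In the plots RNU5A-1, detected on no untreated array, stands at its measured signals.

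**Figure D4:**
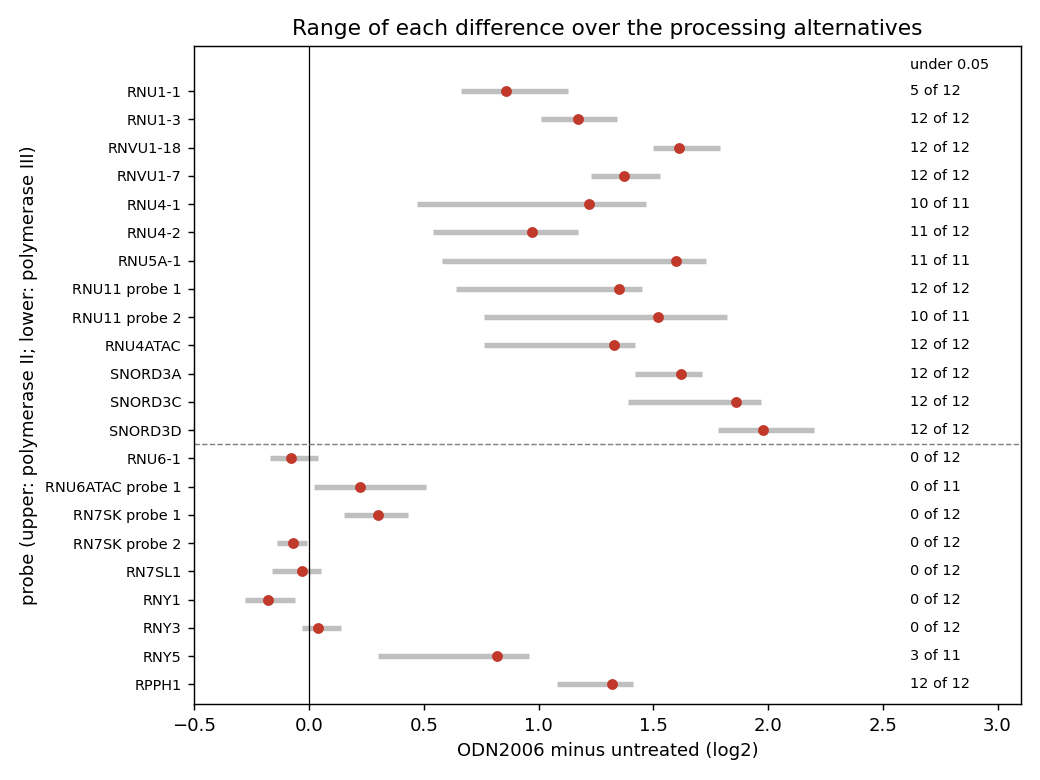
Log2 difference, ODN2006 minus untreated (horizontal axis), of each tested probe as reported (point) and its range over the processing alternatives (grey bar), with the number of alternatives under which the adjusted p was under 0.05. Polymerase II probes keep values above 0 under every alternative, from 0.47 for RNU4-1 without background correction to 2.2 for SNORD3D without untreated replicate 3.

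Other small nucleolar and Cajal body RNAs, most of which are released from introns of host genes, did not share one direction. Of their 102 tested probes, 9 were higher, 12 were lower and 81 did not pass, with a median of -0.10. Their differences ran from -1.12 to 2.36, the highest lying above the 1.98 of SNORD3D. Over all tested probes, 3.25% passed as higher and 1.75% as lower, so both directions were more frequent in this set. One of the 9, SNORD13, is known to have a promoter of its own, and was picked out after its value was seen. It had 8.49, 8.41 and 8.88 on the ODN2006 arrays, against 6.96, 7.23 and 7.55 on the untreated arrays, a difference of 1.35 ± 0.19. Likewise chosen after their values were seen were 2 further polymerase III transcripts, 5S ribosomal RNA and the neuronal RNA BC200. Their probes, RNA5S9 and BCYRN1, had differences of -0.31 ± 0.17 and -0.15 ± 0.16 and did not pass.

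Some of the small RNA genes lie in or beside protein-coding genes, in the gene order of GRCh38.p14. RPPH1 neighbours PARP2, a DNA repair enzyme gene, which had a mean of 6.94 ± 0.29 on ODN2006 arrays and 7.45 ± 0.29 on untreated arrays (SD, n = 3 each). PARP2 differed by -0.51 ± 0.19 (SE) and did not pass (limma adjusted p = 0.206). RNU4ATAC lies within CLASP1, a microtubule regulator gene, which differed by 0.27 ± 0.15 (limma adjusted p = 0.461). TAF12, the neighbour of RNU11, differed by -0.05 ± 0.18 (limma adjusted p = 0.962), and RPS29, which overlaps RN7SL1, by -0.05 ± 0.14 (limma adjusted p = 0.948). None of the neighbours tested passed, CCDC107 beside RMRP included (-0.36 ± 0.21, limma adjusted p = 0.498). SIRT4, which overlaps both U4 genes, GSTA4 beside RN7SK and PLCB1 around RNU105B were not detected well enough to be tested.

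The proteins that make, process and carry these RNAs were looked at in 11 lists with 169 genes in all. Of the 149 tested genes, each taken at its brightest probe, INTS9 rose, RNPC3 fell and 147 did not pass, with a median of -0.05. Over all tested probes, 3.25% passed as higher and 1.75% as lower, so calls were less frequent among these genes. INTS9 encodes a subunit of the cleavage module of Integrator. It had 9.82, 9.75 and 9.95 on the ODN2006 arrays, against 9.08, 9.06 and 8.97 on the untreated arrays, and the groups were far apart. It differed by 0.80 ± 0.14 (limma adjusted p = 0.00396) and passed under all 12 alternatives.

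The other 13 tested Integrator genes did not pass, and the list had a median of -0.03. INTS6, another subunit, is measured by 2 probes that disagreed. Its brighter probe differed by 0.22 ± 0.15 (limma adjusted p = 0.588). Its dimmer probe had 6.69, 6.81 and 6.89 on the ODN2006 arrays, against 6.12, 5.83 and 5.70 on the untreated arrays, a rise of 0.91 ± 0.15 (limma adjusted p = 0.00356). This probe was picked out after its value was seen.

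RNPC3, which encodes a protein of the U11 and U12 particle, had 5.54, 5.95 and 5.86 on the ODN2006 arrays, against 6.36, 6.64 and 6.49 on the untreated arrays. It fell by 0.71 on the log2 scale (SE 0.16, limma adjusted p = 0.0208), at a signal near the limit of detection. It passed under 7 of 12 alternatives, among them a block for the replicate number (SE 0.11, limma adjusted p = 0.00433). Without that block, it did not pass when untreated replicate 2 or 3 or ODN2006 replicate 1 was left out. The limma adjusted p was then 0.0638 to 0.125. Nor did it pass with all probes tested (limma adjusted p = 0.0835) or with background left in the signal, where the difference was -0.31 (limma adjusted p = 0.0904). The other 27 of 28 tested spliceosomal proteins did not pass. The brightest of them were PDCD7, of the U11 and U12 particle, near the top of the scale, with a difference of 0.03, and SNRPB2, which binds U2 RNA, with -0.01.

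No gene passed among 12 tested genes of snRNA promoter factors and polymerase II machinery or 25 of polymerase III and its factors. Their brightest genes had differences of -0.13 for SNAPC1 and 0.39 for SNAPC4, both subunits of SNAPc, and of -0.01 each for CRCP and POLR2F, both polymerase subunits. Nor did a gene pass among 18 genes of snRNA cap binding, export and assembly or 14 of the Sm and LSm rings that bind snRNA. CLNS1A and STRAP, which act in assembly, had -0.03 and 0.18, and SNRPD2 and SNRPB, both Sm proteins, had -0.04 and -0.03.

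Among proteins of single particles, none of 5 genes of the 7SK particle and P-TEFb, 6 of La, Ro and Y RNA proteins, 8 of the signal recognition particle, 10 of RNase P and RNase MRP and 10 of the U3 particle passed. CCNT1, the cyclin of P-TEFb, differed by -0.02 and LARP7, which stabilises 7SK, by -0.17. PTBP1 and NCL, which bind Y RNAs, differed by 0.14 and 0.08. SRP14 and SRP9, which bind 7SL RNA, differed by -0.07 and -0.12. RPP21 and RPP40, subunits of RNase P, differed by -0.15 and 0.04. FBL and NOP56, core proteins of U3 and like particles, differed by 0.08 and -0.31.

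**Figure D5:**
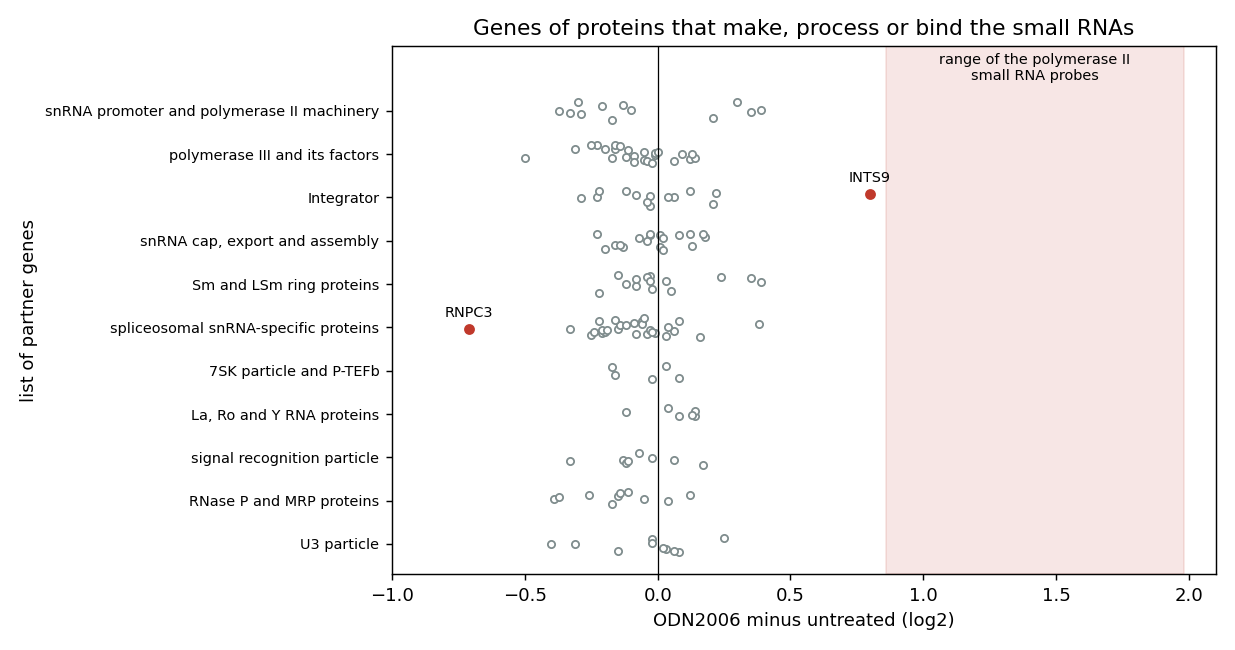
Log2 difference, ODN2006 minus untreated (horizontal axis), of each tested partner gene by list (vertical axis), with the genes that passed the limma test in red. INTS9 at 0.80 and RNPC3 at -0.71 are the 2 that passed, and both lie outside the shaded range of 0.86 to 1.98 spanned by the tested polymerase II small RNA probes.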

How the data were processed

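The authors deposited a table of probe intensity on a linear scale, non-normalized per the file headers, with a detection p-value per probe and array. The deposited log2 values come from limma as far as the submitters' processing notes say, and their exact steps are unknown here. Their medians, 4.67 on untreated and 4.59 on ODN2006 arrays, are equal only within a group, so they were used only as an alternative.

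Intensities were background-corrected with normexp, using negative controls inferred from the detection p-values, given an offset of 16 and quantile-normalized together (neqc, limma 3.58.1, R 4.3.3). Probes with a detection p under 0.01 on all 3 arrays of a group were tested (13816 of 47218) with lmFit and eBayes, two-sided, without covariates, with Benjamini-Hochberg adjustment at 0.05. The fit was tested on simulated data. Symbols came from the platform annotation, updated through Entrez IDs with RefSeq names of GRCh38.p14, which held all 29 small RNA probes.

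Every tested small RNA is named, with up to 4 called or else the 2 brightest genes of each partner list. The members and lists were chosen with earlier results of these data known. Across tested probes, arrays sharing a replicate number deviated together from their group means (r = 0.41, 0.35 and 0.46). By these values the replicate numbers, taken from the titles, appear to pair the samples. The r of other pairs was below 0, which adds nothing, since taking deviations from group means forces it on balance. The fit was repeated with background left in, with median scaling, on the deposited values and with no filter or a stricter one. It was also repeated with a replicate block and with each array left out, the latter without the block.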

Additional observations from a re-analysis of the deposited data

Results flagged for a closer look

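Among the small RNA probes that did not enter the reported fit, 2 were detected on ODN2006 arrays and on no untreated array. RNU2-1, the U2 gene, was detected on 2 of 3 ODN2006 arrays and 0 of 3 untreated arrays. RNU105C was detected on 1 of 3 ODN2006 arrays and 0 of 3 untreated arrays, but the signals of its groups overlapped. Both entered the alternative that tested all probes, and neither passed there. RNU2-1 also entered the fit without ODN2006 replicate 1, where it passed as higher. Groups of 3 arrays are too small to check for outlying samples.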

How the results depend on the processing

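The small RNA probes higher after ODN2006 numbered 15 as reported, and none was lower under any of the 12 alternatives. The count was 10 to 15 over all of them and stayed at 15 with the replicate number as a block, which changed no call of a named gene. Of the values of 22 small RNA probes and of INTS6, INTS9 and RNPC3 (brightest probes), leaving out 1 array kept 132 on their side of the threshold, ended 13 calls, in RNU1-1, RNY5 and RNPC3, and turned 5 near 0. With 1 array left out, RN7SL1 ranged over -0.16 to 0.05, RNU6-1 over -0.17 to 0.04 and RNY3 over -0.03 to 0.14. RN7SL1 turned to 0.01 without untreated replicate 1, 0.05 without untreated replicate 2 and 0.04 without ODN2006 replicate 3, RNU6-1 to 0.04 without untreated replicate 3, and RNY3 to -0.03 without ODN2006 replicate 2. The other settings kept 135 and ended 10 calls, in 6 genes. Testing all probes ended the calls of RNU1-1, RNU4-1, RNU4-2, RNY5, RNPC3 and probe 2 of RNU11. That setting changes both the number of probes adjusted over and the moderated variances, and the cause was not tested. Partner genes that fell numbered 0 in place of 1 without background correction and with all probes tested, and 0 to 1 with 1 array left out. Without background correction the median of the polymerase II probes was 0.76 in place of 1.37. Slide could not enter as a block, since no column name gives it. Signal over background limits the dimmest probes, as the lowest detected signal was 5.18 to 5.50.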
